A study of Rattus norvegicus with 10 samples.

Results

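Hras, Nras, Braf, Map2k1, Dusp6, Spry2, Ccnd1 and Myc are 8 genes of the Ras pathway and of growth control downstream of it, and their RNA levels were read from mammary tumours of rats whose dams had eaten different diets. The genes were chosen by symbol, through the RefSeq transcript that each array probe is annotated with. Of the 8 genes, 5 had a probe (Hras 3 probes, Ccnd1 2, Map2k1, Spry2 and Myc 1 each, 8 probes in all), out of 13832 genes named on the array. Nras, Braf and Dusp6 matched no probe through these identifiers and were not analysed here.

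The tumours came from female Sprague-Dawley rats, 5 in the maternal Western-style diet group (WD1 to WD5) and 5 in the maternal control diet group (CD1 to CD5), with 1 array per tumour. Dams ate the Western-style diet, high in fat and low in fibre and trace elements, or the control diet on gestational days 12 to 20 and postnatal days 1 to 21. Daughters of both groups ate control diet after weaning, were injected once with 50 mg/kg N-methyl-N-nitrosourea (MNU, an alkylating carcinogen) at 3 weeks of age, and had tubular or papillary tumours measured at 110 days. The labels do not name dams or litters, so p-values measure the spread between these tumours only, and there is no tissue without MNU or without a tumour among the samples.

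Ras proteins are small GTPases that carry signals from growth factor receptors into the cell. Active Ras recruits Raf kinases, which phosphorylate the MEK kinases (Map2k1 encodes MEK1), which in turn phosphorylate ERK; the output is dampened by feedback genes such as Spry2 and Dusp6 and promotes cell cycle entry through cyclin D1 (Ccnd1) and Myc. An activating point mutation of Hras is common in mammary tumours induced by MNU in rats; these arrays measure the amount of RNA and do not show mutations. RNA level also says nothing about whether Ras, MEK or ERK protein was active.

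Levels are log2 processed signals minus the 75th percentile of each array, so that 0 is that percentile of its spots. Levels of different probes are not comparable with each other. The 75th percentile of intensity lay between 72.8 and 170 on the WD arrays and between 85 and 226 on the CD arrays, and 16683 to 21904 probes on the WD arrays and 18585 to 21460 on the CD arrays were well above background. Averaged over the 8 luminal epithelial markers tested, Krt8, Krt18, Krt19 and Epcam among them, levels were 3.75 to 4.39 in WD tumours. In CD tumours they were 4.22 to 4.91 (range over tumours), also above the 75th percentile. Elf5, of the same list, lay below that percentile, with means of -1.96 in WD and -2.18 in CD tumours. Its probe was well above background on 3 of 5 arrays of each group. Of the luminal markers 3 (37.5%) had an unadjusted p under 0.05, all lower in WD, against 15.5% of all genes. No marker of any cell type passed. The 5 tested T and NK cell markers, the 7 of macrophages and the 8 of fibroblasts and matrix all had the higher mean in WD (median differences 0.96, 0.62 and 0.75). An unadjusted p under 0.05 was found for 4 of the T and NK cell markers (80%). It was found for 1 macrophage marker (14.3%) and 1 of fibroblasts and matrix (12.5%), against 15.5% of all genes. The median difference was -0.61 over the 4 tested basal and myoepithelial markers and -0.27 over the luminal ones, and 0 of 6 adipocyte markers with a probe were above background on enough arrays to be tested. Their part in the values of the members was not tested. None of 16764 genes passed the comparison of the groups (0%, limma, adjusted p under 0.05), while 2599 (15.5%) had an unadjusted p under 0.05. The latter count and its split of 1307 higher and 1292 lower depend on the scaling: with the array median in place of the 75th percentile, 331 were higher and 3303 lower in WD. All 8 member probes were well above background on all 10 arrays, and none of their spots was saturated.

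**Figure D1:**
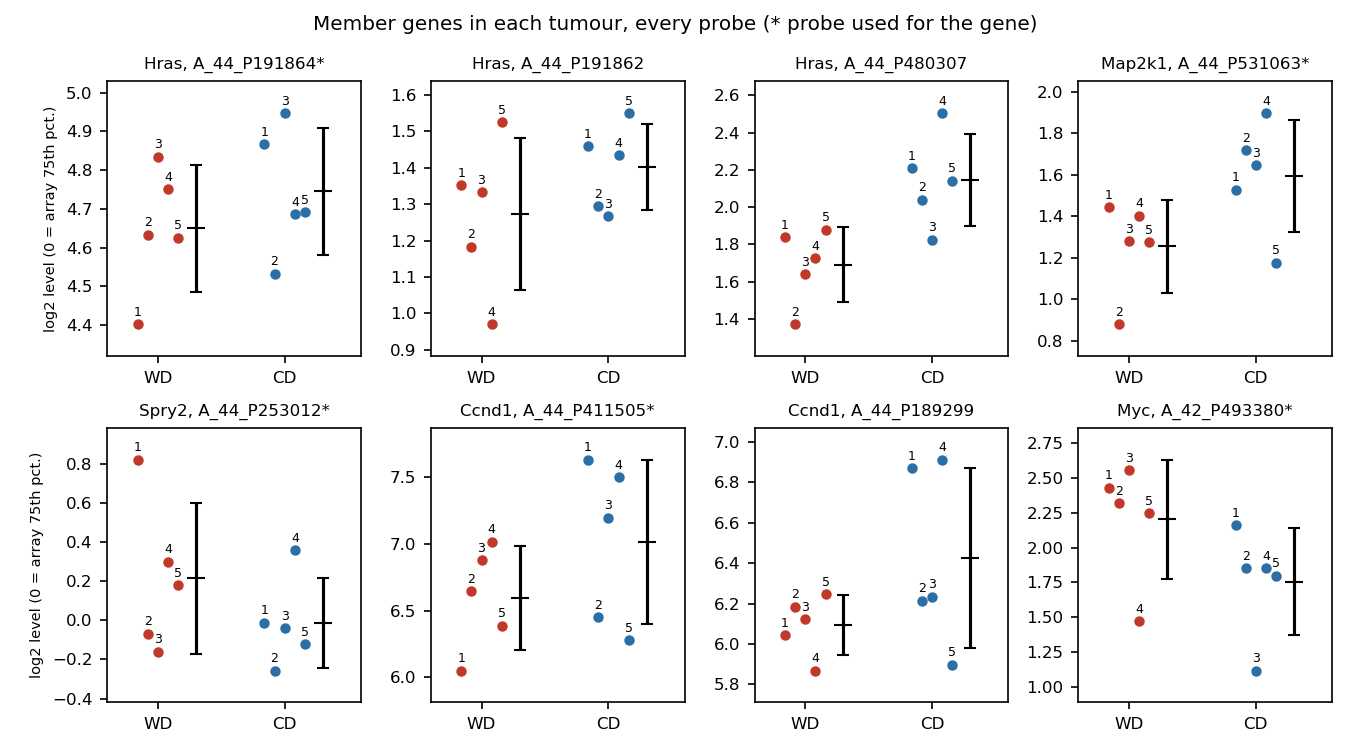
Log2 level (vertical axis, 0 is the 75th percentile of the array) of every probe of the 5 measured genes in each tumour, WD at the left and CD at the right of each panel, with replicate numbers beside the points and the mean and SD (n = 5) as a black bar. The groups overlap for all 8 probes; 4 of the 5 WD points for Myc lie above every CD point, and all 5 WD points for Map2k1 lie below the CD mean.

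No measured member passed the test of WD against CD (adjusted p over all genes 0.365 to 0.766), none had an unadjusted p under 0.05, and the groups overlapped for all 5 genes, where 3.64% of all genes had groups that did not overlap (1.34% higher and 2.3% lower in WD). The WD mean was higher for Myc and Spry2 and lower for Hras, Map2k1 and Ccnd1. The differences ran from -0.42 for Ccnd1 to 0.45 for Myc, with a median of -0.10, beside a median of 0.01 over all genes.

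Hras, the Ras GTPase gene of the set, was the least variable member. Its probe of highest signal (A_44_P191864) had levels of 4.40, 4.63, 4.84, 4.75 and 4.63 in WD1 to WD5, against 4.87, 4.53, 4.95, 4.69 and 4.69 in CD1 to CD5. WD1 was the lowest of the 10 tumours and CD3 the highest, and the other 8 tumours of the groups lay intermixed. The means were 4.65 ± 0.16 in WD and 4.75 ± 0.16 in CD tumours (SD, n = 5 each), a difference of -0.10 with a 95% interval of -0.40 to 0.21, or 0.76-fold to 1.16-fold on the linear scale (limma, adjusted p 0.766). Its residual SD between tumours of a group was 0.16, at percentile 5.43 of all genes tested, and the lower end of the interval is a WD mean 1.32-fold below the CD mean. Within slides 1, 2 and 3 the difference was -0.01, -0.03 and -0.15.

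The other probes of Hras did not follow the first one over the tumours. Probe A_44_P191862, annotated to the same transcript (NM_001098241), correlated with it at r = -0.08 over the 10 tumours, and probe A_44_P480307, annotated to NM_001130441, at r = 0.02; these last 2 probes correlated with each other at r = 0.58. A_44_P480307 had levels of 1.84, 1.37, 1.64, 1.72 and 1.88 in WD1 to WD5, against 2.21, 2.04, 1.82, 2.50 and 2.14 in CD1 to CD5. Of the 5 WD tumours, 3 lay below every CD tumour and all 5 lay below the CD mean. The means were 1.69 ± 0.20 in WD and 2.14 ± 0.25 in CD tumours (SD, n = 5 each), a difference of -0.45 (unadjusted p 0.0176; limma over 19725 probes, adjusted p 0.235). This was the 1 member probe with an unadjusted p under 0.05, a threshold that 15.6% of all probes passed. A_44_P191862 differed by -0.13 (adjusted p 0.688). The 3 probes of Hras thus gave the same direction with different sizes.

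The relatives of Hras on the array did not pass either. Rras, a related GTPase, differed by -0.25 (adjusted p 0.570), and Rras2 and Mras by 0.31 and 0.24 (adjusted p 0.619 and 0.690). Of 13 Ras GTPases and regulators of Ras tested, 0 passed in limma and 0 had an unadjusted p under 0.05, with a median difference of 0.10. The largest difference among them was that of Spred2, which encodes an inhibitor of Ras and Raf signalling, at 0.74 (adjusted p 0.410), but that probe was well above background on 3 of 5 WD and 2 of 5 CD arrays, so its size is uncertain.

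**Figure D2:**
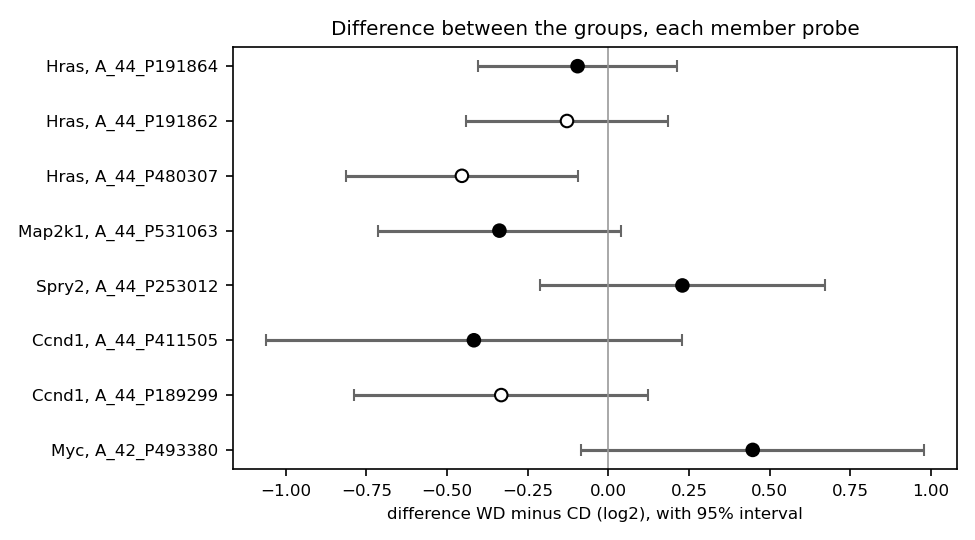
Difference between WD and CD means on the log2 scale (horizontal axis) for each probe of the 5 measured genes, with its 95% interval from the moderated fit; filled circles mark the probe used for the gene and open circles further probes. The interval excludes 0 for the Hras probe A_44_P480307 alone (-0.81 to -0.10), without adjustment for the number of probes tested.

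Map2k1 had the smallest p of the 5 genes. Its levels were 1.44, 0.88, 1.28, 1.40 and 1.27 in WD1 to WD5, against 1.53, 1.72, 1.65, 1.90 and 1.18 in CD1 to CD5. All 5 WD tumours lay below the CD mean, but CD5 lay among them and below 4 of them. The means were 1.26 ± 0.22 in WD and 1.59 ± 0.27 in CD tumours (SD, n = 5 each), a difference of -0.34 (95% interval -0.71 to 0.04, 1.26-fold lower; unadjusted p 0.0738, limma adjusted p 0.365). Within slides 1, 2 and 3 it was -0.56, -0.07 and -0.44.

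The other MEK gene, Map2k2, differed in the same direction, by -0.30 (unadjusted p 0.0384, limma adjusted p 0.294). It had levels of 2.99, 2.94, 3.17, 2.96 and 3.11 in WD1 to WD5, against 3.48, 3.35, 3.39, 3.12 and 3.33 in CD1 to CD5, so that CD4 alone of the CD tumours overlapped the WD range. Araf, a Raf gene that acts just above MEK as Braf does, differed by -0.18 (adjusted p 0.679). Mapk3, which encodes the kinase ERK1, had levels of -1.50, -2.22, -3.15, -2.48 and -1.73 in WD1 to WD5, against -1.24, -0.73, -1.80, -1.38 and -1.54 in CD1 to CD5. The WD mean of Mapk3 was 0.88 below the CD mean (1.84-fold; unadjusted p 0.0150, limma adjusted p 0.229), with only 2 of 5 WD arrays well above background against 5 of 5 CD arrays, so this size is uncertain too. Shoc2, a scaffold that promotes activation of Raf, stood the other way. It had 0.87, 1.53, 1.40, 1.48 and 0.92 in WD1 to WD5, against 0.68, 0.55, 0.88, 0.62 and 0.54 in CD1 to CD5. WD1 alone lay inside the CD range, just under CD3, and the WD mean was 1.50-fold higher (difference 0.59, unadjusted p 0.00525, limma adjusted p 0.186). In all, 0 of 10 tested genes of the Raf, MEK, ERK and scaffold list passed in limma, with a median difference of -0.04. An unadjusted p under 0.05 was found for 3 (30%, 1 higher and 2 lower), against 15.5% of all genes.

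Spry2 encodes Sprouty 2, an inhibitor of receptor tyrosine kinase signalling that is itself induced by ERK. Its levels were 0.82, -0.07, -0.16, 0.30 and 0.18 in WD1 to WD5, against -0.01, -0.26, -0.04, 0.36 and -0.12 in CD1 to CD5. WD1 was the highest of all tumours, CD4 came second, and the rest of both groups lay between -0.26 and 0.30. The means were 0.21 ± 0.39 in WD and -0.01 ± 0.23 in CD tumours (SD, n = 5 each), a difference of 0.23 (95% interval -0.21 to 0.67, limma adjusted p 0.602). Much of it came from 1 tumour: without WD1 the difference was 0.08. With the array median as scale it was -0.022, and within slides 1, 2 and 3 it was 0.63, 0.15 and 0.01.

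Other ERK feedback and target genes gave no common direction that passed a test. Spry4, a paralogue of Spry2, differed by 0.18, and Dusp4 and Dusp5, phosphatases that like Dusp6 act on ERK and related kinases, by -0.10 and -0.05 (adjusted p 0.848, 0.875 and 0.911). Dusp5 stood out for its even level in CD tumours, 2.94 ± 0.05 (SD, n = 5), beside 2.89 ± 0.31 in WD tumours (n = 5); the spread was not tested. Ier3, an early response gene, had the smallest p after Plaur in this list and differed by 0.43 (adjusted p 0.411). Plaur, the urokinase receptor gene, differed by 0.81 (unadjusted p 0.0299, limma adjusted p 0.270), with 3 of 5 WD and 2 of 5 CD arrays well above background; WD4 had -0.69, the highest of all tumours, and without WD4 the difference was 0.49. Of 12 tested genes of the list 0 passed in limma, 1 had an unadjusted p under 0.05, and the median difference was 0.15.

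Upstream, among 16 receptor tyrosine kinases and adaptors, 0 passed in limma and 1 had an unadjusted p under 0.05, with a median difference of -0.07. That gene was Erbb2, the receptor tyrosine kinase gene amplified in some human breast cancers, with a WD mean of 0.14 ± 0.39 and a CD mean of 1.15 ± 0.68 (SD, n = 5 each; unadjusted p 0.00816, limma adjusted p 0.202). WD1 alone, at 0.74, lay within the CD range of 0.35 to 1.98. Pdgfra, a receptor of fibroblasts that also stands in the fibroblast marker list, differed by 0.84 (adjusted p 0.364). On the PI3K branch, which Ras also feeds, Akt1 had levels of 1.63, 0.96, 0.90, 0.89 and 1.62 in WD1 to WD5, against 2.07, 2.07, 1.22, 2.09 and 2.02 in CD1 to CD5. CD3 lay below WD1 and WD5 while the other 4 CD tumours lay above all WD tumours, and the difference was -0.69 (unadjusted p 0.0120, limma adjusted p 0.215). Akt2 differed by -0.48 (unadjusted p 0.0354, adjusted p 0.285), well above background on 2 of 5 WD and 5 of 5 CD arrays. Of the 15 PI3K and Ral genes tested 0 passed in limma, these 2 had an unadjusted p under 0.05, and the median difference was -0.16.

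**Figure D3:**
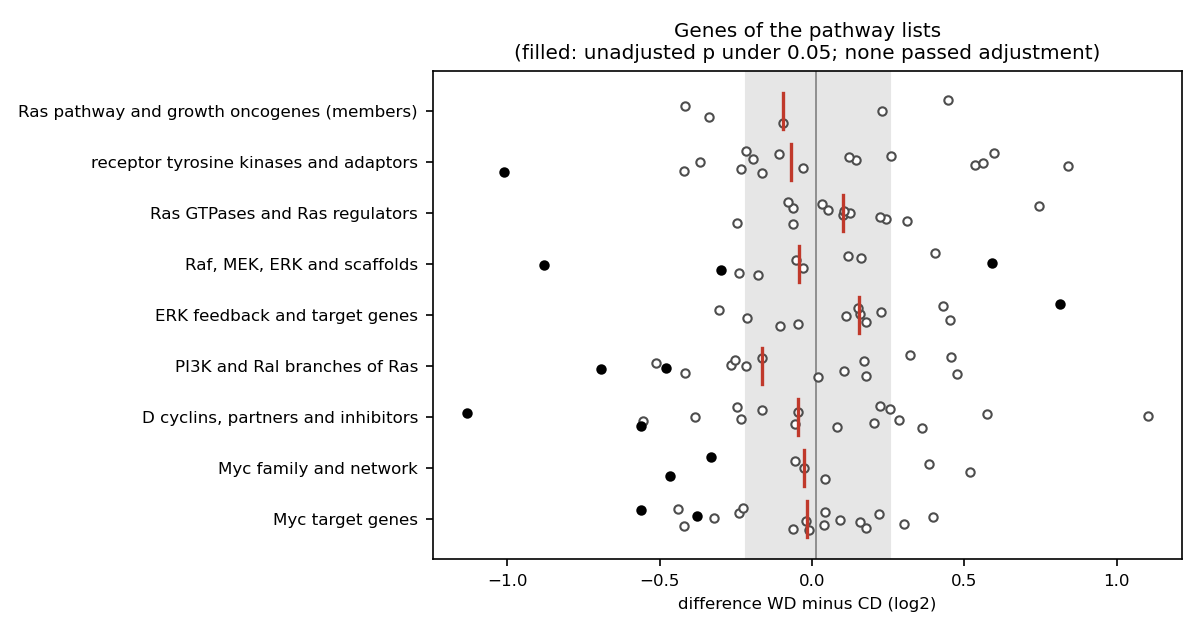
Difference between WD and CD means on the log2 scale (horizontal axis) for every tested gene of the 5 members and of 8 pathway lists, 1 circle per gene and filled where the unadjusted p was under 0.05; the red line is the median of the list, the grey line the median of all 16764 genes and the grey band runs from their lower to their upper quartile (-0.22 to 0.26). List medians lie between -0.16 and 0.15, inside the band.

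Ccnd1 encodes cyclin D1, which pairs with Cdk4 or Cdk6 to drive cells into the division cycle, and it was the most variable member. The probe used (A_44_P411505) had levels of 6.05, 6.65, 6.88, 7.02 and 6.39 in WD1 to WD5, against 7.63, 6.45, 7.20, 7.50 and 6.28 in CD1 to CD5. CD1, CD4 and CD3 were the 3 highest tumours, while CD2 and CD5 fell within the WD range. The range over the 10 tumours was 3.00-fold, and the residual SD of 0.51 stood at percentile 76.8 of all genes. The means were 6.59 ± 0.39 in WD and 7.01 ± 0.61 in CD tumours (SD, n = 5 each), a difference of -0.42 (95% interval -1.06 to 0.23, limma adjusted p 0.510). Without CD1 it was -0.26. Within slides 1, 2 and 3 it was -0.10, 0.21 and -1.18, so the direction was not the same on every slide.

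The second Ccnd1 probe, A_44_P189299, correlated with the first at r = 0.72 over the 10 tumours and differed by -0.33 (limma over all probes, adjusted p 0.456). It placed CD1 and CD4 above all other tumours, at 6.87 and 6.91, as the first probe did, but CD3 at 6.23 among the WD tumours, which lay between 5.87 and 6.25. Ccnd2 and Ccnd3, the other D cyclins, differed by 0.36 and 0.08 (adjusted p 0.585 and 0.894).

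Cdk4, the kinase partner of cyclin D1, had groups that did not overlap, as did 3.64% of all genes. Its levels were 2.63, 2.31, 2.34, 2.33 and 2.69 in WD1 to WD5, against 3.11, 3.20, 2.76, 3.17 and 2.85 in CD1 to CD5. The WD mean was 1.48-fold lower (difference -0.56, unadjusted p 0.00308, limma adjusted p 0.181), and a second probe of the gene differed by -0.41. Cdkn2c, an inhibitor of Cdk4 and Cdk6, also had a lower WD mean (difference -1.13, unadjusted p 0.0247, limma adjusted p 0.261). These 2 genes were the ones with an unadjusted p under 0.05 among 17 tested D cyclin partners and inhibitors (0 passed in limma, median difference -0.05). Of the 7 tested markers of proliferating cells none passed in limma and 2 (28.6%) had an unadjusted p under 0.05, against 15.5% of all genes. All 7 had the lower mean in WD, and their mean level overlapped between the groups, at -0.82 to 0.94 in WD against 0.12 to 1.61 in CD tumours; their part in the Cdk4 values was not tested. Since these are bulk samples, fewer cells of a type and less RNA per cell cannot be told apart.

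**Figure D4:**
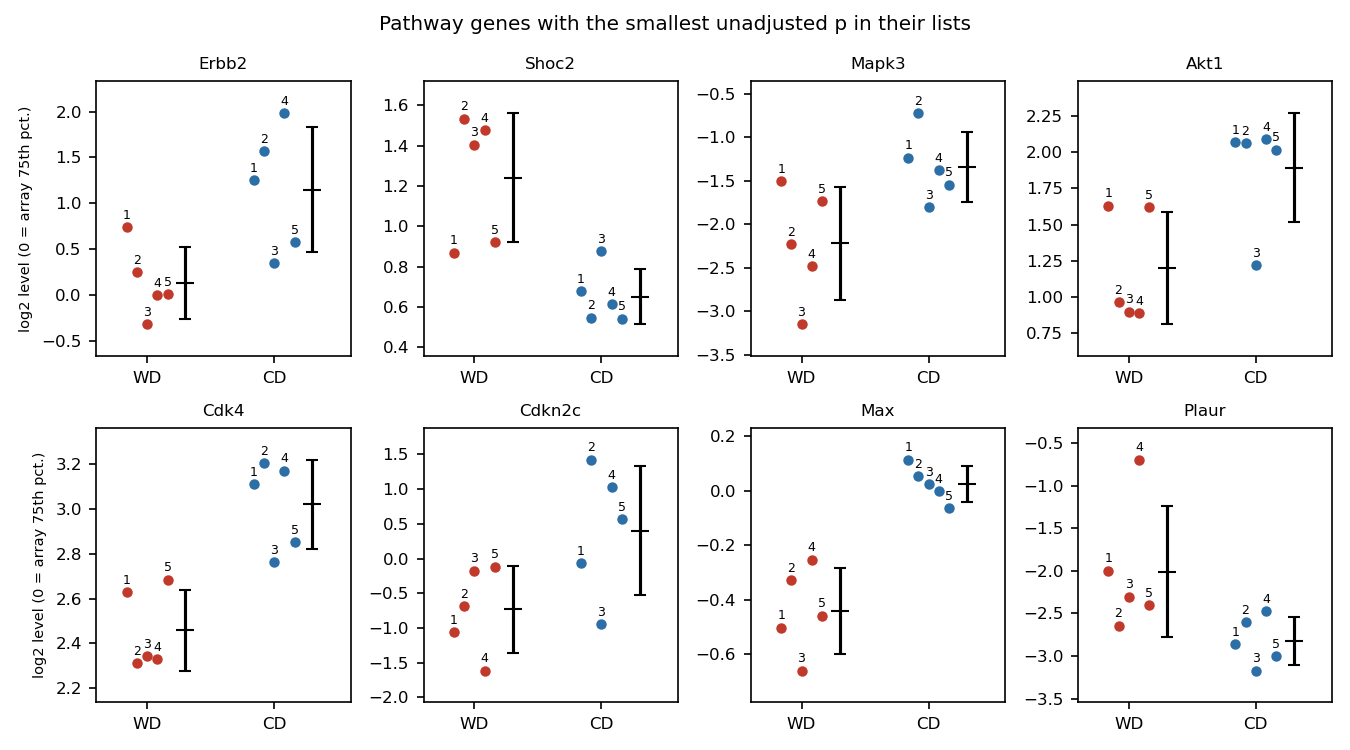
Log2 level (vertical axis, 0 is the 75th percentile of the array) of 8 pathway genes named for a small p in their lists, in each tumour, WD left and CD right, with replicate numbers and the mean and SD (n = 5). The groups are apart for Cdk4 and Max and overlap for Erbb2, Shoc2, Mapk3, Akt1, Cdkn2c and Plaur.

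Myc encodes a transcription factor of growth and biosynthesis whose RNA is short-lived. Its levels were 2.43, 2.32, 2.55, 1.47 and 2.24 in WD1 to WD5, against 2.16, 1.85, 1.12, 1.85 and 1.80 in CD1 to CD5. Of the WD tumours 4 lay above every CD tumour, and WD4 lay below 4 of the 5 CD tumours. The means were 2.20 ± 0.43 in WD and 1.76 ± 0.38 in CD tumours (SD, n = 5 each), a difference of 0.45 (95% interval -0.08 to 0.98, 1.36-fold higher; unadjusted p 0.0914, limma adjusted p 0.393). Within slides 1, 2 and 3 it was 0.52, 0.55 and 0.24. Leaving out WD4 raised it to 0.63 (unadjusted p 0.0121, limma adjusted p 0.302), and leaving out CD3 lowered it to 0.29.

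The Myc probe was printed as 10 spots on each array, which gives the spread within an array. The SD between spots of 1 array, those marked as outliers included, was 0.05 to 0.09 (median 0.06). The residual SD between tumours of a group was 0.41. Over all arrays 10 member spots were marked as outliers, and these were left out of the levels. The spots of an array share its labelling and hybridisation, so their SD does not cover these steps.

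Mycn, a paralogue of Myc, differed by 0.04 (adjusted p 0.962). Max, the obligate partner of Myc in binding DNA, was besides Cdk4 the other of 107 tested pathway genes whose groups did not overlap (1.87%, against 3.64% of all genes). It had -0.50, -0.33, -0.66, -0.25 and -0.46 in WD1 to WD5, against 0.11, 0.05, 0.02, 0.00 and -0.06 in CD1 to CD5. The CD tumours lay close together at 0.03 ± 0.07 and the WD tumours lower at -0.44 ± 0.16 (SD, n = 5 each), a difference of -0.47 (1.38-fold lower; unadjusted p 0.00367, limma adjusted p 0.181). Zbtb17, which encodes the Myc-binding transcription factor Miz-1, differed by -0.33 (unadjusted p 0.0365, limma adjusted p 0.289). Of the 7 tested genes of the Myc network 0 passed in limma and these 2 (28.6%) had an unadjusted p under 0.05, against 15.5% of all genes. Among 18 Myc target genes 0 passed in limma, and 2, Cdk4 and the transferrin receptor gene Tfrc, had an unadjusted p under 0.05, both with the lower mean in WD; the median difference was -0.02 and 8 of the 18 had the higher mean in WD. Tfrc differed by -0.38 (adjusted p 0.268).

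Over the 8 pathway lists together, 107 of 136 named genes were tested. At an unadjusted p under 0.05 there were 12 (11.2%), against 15.5% of all genes, of which 2 (1.87%) were higher and 10 (9.35%) lower in WD, against 7.8% and 7.71% of all genes. The groups did not overlap for 2 of the 107 genes (1.87%), against 3.64% of all genes. The total share, the share higher and the share without overlap were below those of all genes and the share lower was above, and the median difference was 0.02. With array brightness as a covariate several of these genes had sizes smaller by more than 1.5 times: Akt1 differed by -0.21, Akt2 by -0.17, Mapk3 by -0.39, Cdkn2c by -0.51, Cdk4 by -0.37, Zbtb17 by -0.14 and Shoc2 by 0.33. Others had larger sizes with that covariate: Ier3 differed by 0.77, Spred2 by 1.08, Plaur by 0.94 and Tfrc by -0.50. Max stayed at -0.46, and Erbb2 was -0.68. Taking the array median as scale moves all differences downward by the same amount, the median of all genes to -0.24, so the signs of small positive differences and list medians depend on the scale.

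The 5 measured members did not vary as a block from tumour to tumour. Of the 10 pairs, 0 passed a two-sided permutation test of Pearson's r over the 10 tumours (100000 permutations, Benjamini-Hochberg over 10 pairs) and 1 had an unadjusted p under 0.05. That pair was Hras and Ccnd1, at r = 0.74 (permutation p 0.0142, adjusted p 0.142) and rho = 0.72 (permutation p 0.0242, adjusted p 0.242). Without WD1 and CD3, the tumours farthest from the median of Hras, r was 0.64. Within groups it was 0.71, within slides 0.79 and with array brightness removed 0.76; single slides held too few tumours for a value. It varied with the probe: over the other 5 combinations of Hras and Ccnd1 probes r ran from -0.12 to 0.63, the highest being that of A_44_P480307 with A_44_P189299, neither of them the probe used. The other 9 pairs had r from -0.49 (Hras and Spry2) to 0.46 (Map2k1 and Ccnd1), and Map2k1 and Spry2, a kinase of the pathway and one of its feedback genes, had r = 0.18.

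The genes whose levels most resembled each member over the 10 tumours were picked for the highest r among 8255 named genes, so their r is a description. For Ccnd1, with probe A_44_P411505, they were Epcam (r = 0.95) and Usp12 (r = 0.94). Epcam encodes an adhesion protein of epithelial cells and Usp12 a ubiquitin-specific protease. Epcam had levels of 4.66, 5.19, 5.60, 5.45 and 4.85 in WD1 to WD5, against 5.78, 4.99, 5.59, 5.91 and 5.14 in CD1 to CD5. WD1 was the lowest and CD1 and CD4 the highest for Epcam, as for that Ccnd1 probe. The second Ccnd1 probe, A_44_P189299, followed the first less closely (r = 0.72). It also had CD1 and CD4 highest, but its lowest tumour was WD4, at 5.87. For Hras, with probe A_44_P191864, they were Lsm3 (r = 0.97), which encodes an RNA-binding protein of the splicing machinery, and Hddc3 (r = 0.97). The other Hras probes did not follow that probe (r = -0.08 and 0.02), so this likeness describes that probe and not Hras as a whole. For Map2k1 they were Plcg2, a phospholipase of immune receptor signalling, and the lysosomal protease Ctsh (both r = 0.94). For Spry2 they were Ltbp2 (r = 0.94), an extracellular matrix protein, and Ankh (r = 0.89), a pyrophosphate transporter. For Myc they were Trmt2a (r = 0.92), a tRNA methyltransferase, and Fkbp11 (r = 0.88), a protein of the endoplasmic reticulum.

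Against marker lists of other cell types, 1 of 50 relations (5 genes by 10 lists) passed a two-sided permutation test of Pearson's r, and 3 had an unadjusted p under 0.05. This family was added after the data had been seen. Spry2 was high where the mast cell markers were low (r = -0.93, permutation adjusted p 0.0275), but by rank the relation did not pass (rho = -0.83, permutation adjusted p 0.111). Without WD1 and CD5, the tumours farthest from the median of the markers, r was -0.87, and within groups it was -0.93. Leaving out WD1 alone gave -0.82 and ended the call (permutation adjusted p 0.341), as did leaving out WD4, WD5 or CD4 (r -0.94 to -0.92, permutation adjusted p 0.0555 to 0.083), and with the array median as scale r was -0.52 (permutation adjusted p 0.865). The mean level of the 5 markers was -1.84 in WD1, -0.66 to 0.71 in the other WD tumours and -0.25 to 1.24 in CD tumours. By single marker, r with Spry2 was -0.92 for Cpa3, -0.88 for Hdc, -0.86 for Mcpt1 and -0.83 for Tpsb2. These are genes of mast cell granules and histamine synthesis. Kit, the stem cell factor receptor, which other cells of the gland also express, stood the other way at 0.66. The Kit probe was well above background on 2 of 5 WD and 3 of 5 CD arrays (mean level -2.04), so its r is uncertain. Hdc was well above background on 4 of 5 WD arrays. Its level of -4.44 in WD1 is part of the low marker mean of that tumour. The other 2 relations with an unadjusted p under 0.05 were with the mean of the 2 tested skeletal muscle markers, Mb and Myh2. Of 5 such markers with a probe, Acta1, Ckm and Tnnt3 were not kept for testing. Mb and Myh2 had low mean levels of -0.81 and -1.94 over all tumours, so this mean is a weak measure of muscle. The 2 markers were not alike over the tumours: Myh2 was highest in WD3 (-0.80), where Mb was low (-1.43). WD minus CD was 0.93 for Myh2 and 0.0008 for Mb. Myc was high where the mean of the 2 was high (r = 0.78, permutation adjusted p 0.195, and rho = 0.85, permutation adjusted p 0.111). This r was 0.55 without WD1 and CD3 and 0.69 within groups. The relation of Myc to each marker alone was not tested. The mean level of these markers was -1.60 to -0.67 in WD and -2.15 to -1.14 in CD tumours, and their part in the Myc values was not tested. Hras had r = -0.68 with the mean of these markers (permutation adjusted p 0.524), and -0.15 without the same pair of tumours.

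**Figure D5:**
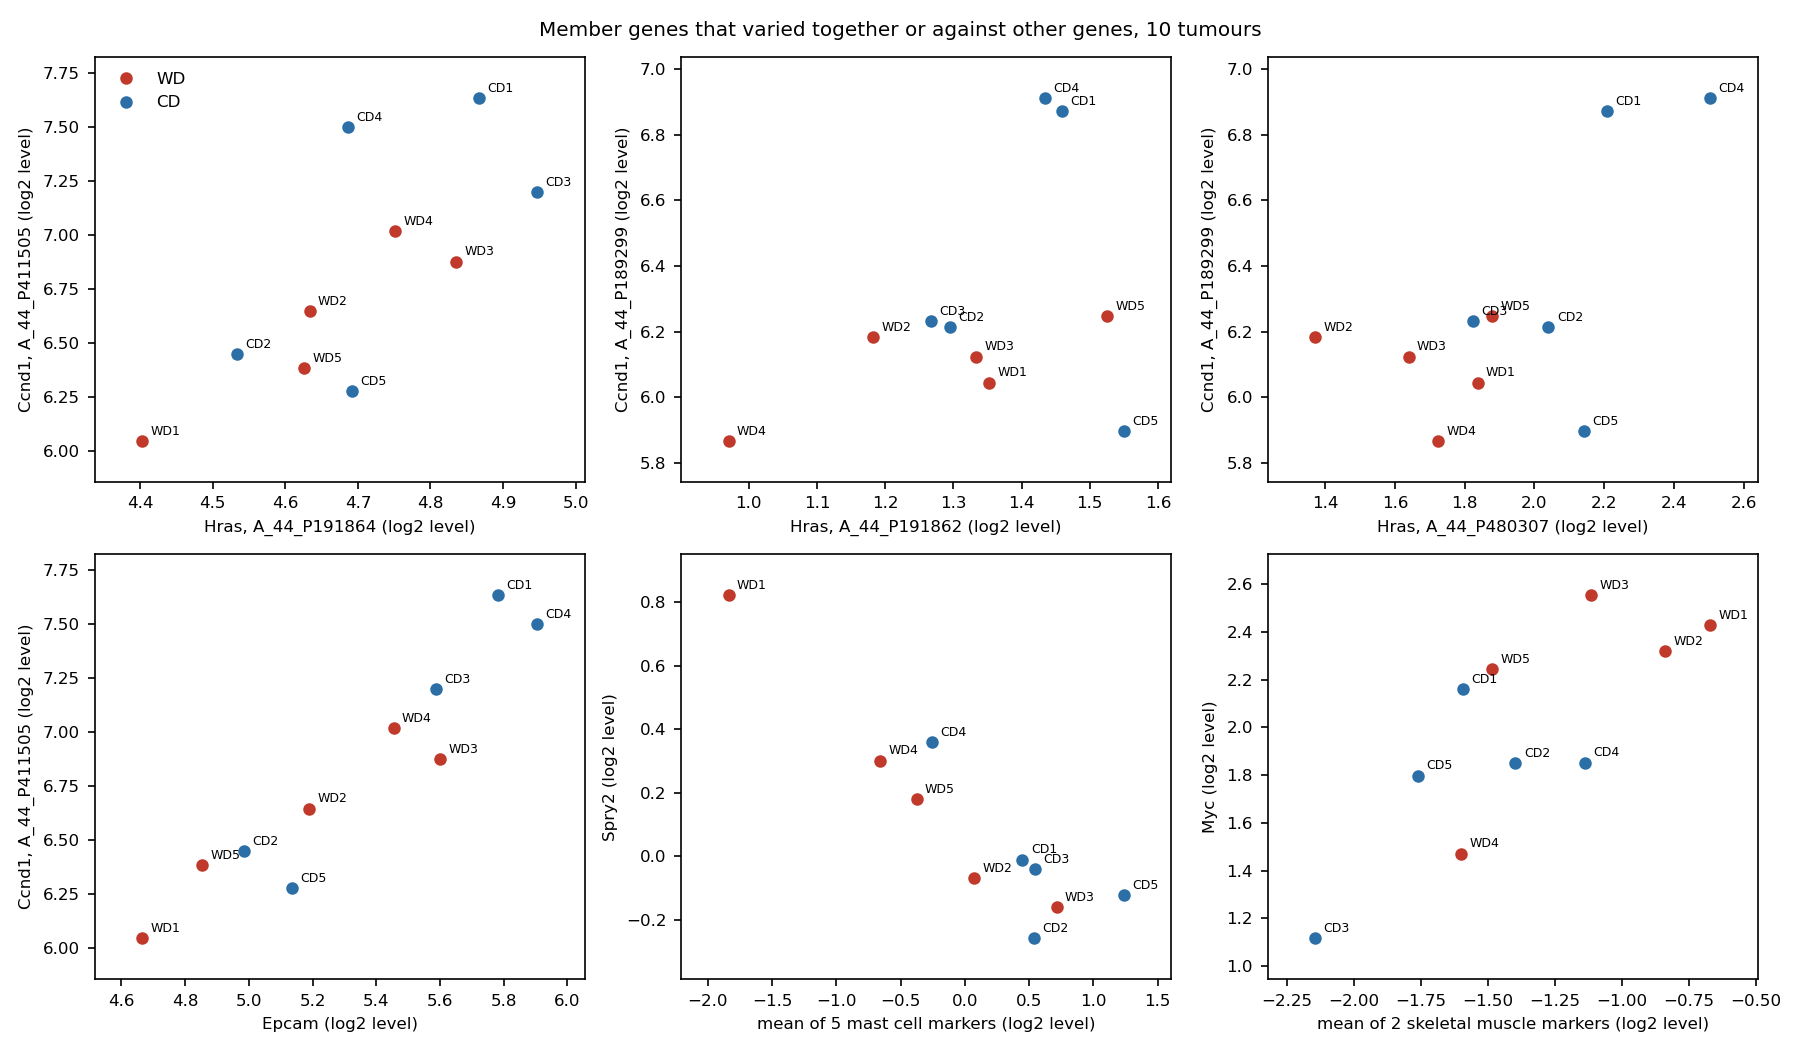
Log2 levels of pairs of measures in the 10 tumours, WD in red and CD in blue. The top row shows Ccnd1 against Hras with the probes used (left, r = 0.74). It also shows the other Ccnd1 probe with each other Hras probe (middle, r = 0.38, and right, r = 0.63). The bottom row shows Ccnd1 with the probe used, A_44_P411505, against Epcam (left, r = 0.95). Next are Spry2 against the mean of 5 mast cell markers (middle, r = -0.93) and Myc against the mean of 2 skeletal muscle markers (right, r = 0.78). WD1 lies at an end of both axes in the top left, bottom left and bottom middle panels.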

How the data were processed

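RNA of 10 mammary tumours was labelled with Cy3 (200 ng of total RNA) and read on 1-colour Agilent whole rat genome arrays. The authors extracted each scan with Agilent Feature Extraction 11.5.1.1, per the file headers; the submitters' processing notes give version 15.5 instead. The deposited intensity values are background-subtracted processed signals, not scaled between arrays, per the file headers. The deposited series matrix holds log2 values, whose rank order was that of each array's own median signals (Spearman correlation 1 on all 10 arrays); its centring and tool are not given in the sources used here, and it served as an alternative only.

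From these, spots marked as outliers were left out, log2 values minus the 75th percentile of each array were averaged per probe, and 19725 of 41012 probes, well above background on at least 5 of 10 arrays, were kept. RefSeq (GRCr8) named 17502 probes (42.7%) through transcript identifiers; the array design is on rn4, so no positions are given. The probe of highest mean level stood for a gene. The test of WD against CD was limma's moderated fit (version 3.58.1, R 4.3.3), with Benjamini-Hochberg adjustment over 16764 genes. Correlations used numpy 2.4.6 and scipy 1.17.1; plots used matplotlib 3.10.9.

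The members and lists were chosen with earlier results of these data known. Named genes are all members, the 2 of smallest p in each pathway list and the 2 most like each member; paralogues of members, Map2k2 among them, and single marker genes were added after their values were seen. The 3 slides, each scanned apart, held 2 WD and 1 CD, 2 and 2, and 1 and 2 tumours. On simulated data of this size, 42 of 100 genes changed 2-fold and 86 of 100 changed 4-fold were recovered, with 2 false calls. The simulated noise was normal and independent for each gene, without shared slide or brightness effects. Member differences were all smaller than 2-fold, so these shares do not describe recovery for the members. The files hold no mean spot signal, so normexp used median signals. The number of arrays limits the precision.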

Additional observations from a re-analysis of the deposited data

Results flagged for a closer look

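In 46 groups of 5 tumours examined for 1 value far from the rest (Dixon's criterion, gap over range above 0.71), 2 were found, where chance gives about 1 in 20 groups. Myc was 1.47 in WD4, while the other WD tumours lay between 2.24 and 2.55. Akt1 was 1.22 in CD3, while the other CD tumours lay between 2.02 and 2.09.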

How the results depend on the processing

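No member passed under any alternative (lowest adjusted p 0.164, limma), nor did any of the 15 named pathway genes (lowest 0.112), and the count of genes passing was 0 under all settings. The direction of each member held in all of them except that with the array median as scale Spry2 was -0.022. That scale moved the median of all genes to -0.24; relative to it Hras, Map2k1, Spry2, Ccnd1 and Myc differed by -0.11, -0.35, 0.22, -0.43 and 0.44. Leaving out 1 tumour at a time gave -0.15 to -0.03 for Hras, -0.44 to -0.24 for Map2k1, 0.08 to 0.32 for Spry2, -0.60 to -0.26 for Ccnd1 and 0.29 to 0.63 for Myc. With normexp Hras was -0.0040. With array brightness as a covariate the differences were -0.23, -0.34, 0.33, -0.71 and 0.66, and with slide as a block -0.06, -0.31, 0.25, -0.28 and 0.46. Genes at an unadjusted p under 0.05 numbered 496 with normexp and 961 with brightness as a covariate, against 2599 of the same 16764 genes, and the cause was not tested; without a filter on dim probes they numbered 7050 of 36022. With normexp Mapk3 differed by -0.23, Akt2 by -0.05, Cdkn2c by -0.64 and Plaur by 0.27. Of the 10 member pairs 1 passed, Hras and Ccnd1, with normexp (r = 0.88), with the array median (r = 0.82) and without CD4 (r = 0.85); over single left-out tumours 0 to 1 passed, and with the series matrix r was 0.54. The Spry2 and mast cell relation was not past the threshold with the series matrix (r = -0.75).

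Replicate numbers did not pair the tumours: same-numbered tumours had correlations of their deviations of -0.02 to 0.16, and 0 of 5 WD tumours correlated best with its own number. With replicate number as a block 2673 genes had an unadjusted p under 0.05, 0 passed, and the block changed no member's direction or call (Myc 0.45). Probes well above background on only some arrays have uncertain sizes, among them Mapk3, Akt2, Spred2, Plaur and the mast cell markers Kit and Hdc.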
